A study of Mus musculus with 6 samples.

Results

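The genes described here are the members of a zinc finger gene cluster near the distal end of mouse chromosome 4, around *Zfp979*. They were chosen as every gene that starts between 144.5 and 148 Mb of that chromosome (GRCm38, a window of 3.5 Mb) and has a mean value of at least 5 over the 6 libraries. All 118 genes that the GENCODE annotation places in the window had a row in the deposited table, and 67 of them, out of 47729 rows in all, were members. Of the 67 members, 15 carry a Zfp symbol, 38 a Gm symbol (a predicted gene without a given name) and 14 another name. The window was drawn around *Zfp979* because that gene stood out in the comparison of the lines, so the differences between lines are given for all members as a description and support nothing by themselves.

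The libraries were made from polyadenylated RNA of the proximal end of the tibia (growth plate, metaphysis, joint cartilage and secondary ossification center) of mice aged 14 days. The 3 LS1 mice belong to the first Longshanks line, which was bred for a long tibia relative to body mass, and the 3 Control mice to the random-bred line of the same ICR (CD-1) stock. Both epiphyses of a mouse were pooled, the mice of a line came from different families, and no mouse was treated. The labels give neither sex nor litter, and a single selected line stands for the selection here, so selection and drift within that line cannot be told apart.

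Most zinc finger genes of this kind encode KRAB zinc finger proteins. An array of C2H2 zinc fingers, short loops that each hold a zinc ion, reads a DNA sequence, and the KRAB domain at the other end recruits TRIM28 (KAP1) and with it the histone methyltransferase SETDB1, which silences the bound site. Many of these proteins bind transposable elements, and their genes sit in clusters that grow by tandem duplication and differ between mouse strains. Neighbors in such a cluster can therefore be nearly the same in sequence.

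The cluster held 16 members with C2H2 zinc fingers, the 15 Zfp genes and *Gm13212*, when the coding sequences of the GENCODE transcripts were translated. A KRAB-like pattern was found in 15 of them, the exception being *Zfp933*, and in 1 further gene, *Gm21411*, which had 0 zinc fingers. The annotated coding sequence of *Gm21411*, 408 bases without a stop codon, is incomplete, so any fingers outside it were not counted. The number of fingers ran from 2 in *Zfp993*, whose annotated coding sequence is incomplete, and 3 in *Zfp979* to 20 in *Gm13212*. The other members were 13 protein-coding genes in which no zinc finger was found, 32 pseudogenes and 6 long intergenic noncoding RNAs (lincRNAs).

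The starts of several of these genes were alike in sequence. RefSeq gave a promoter window (300 bases around the annotated start, GRCm38.p6) for 12 of the 16 zinc finger members. The RefSeq start lay 98112 bases from the GENCODE 5′ end for *Zfp993* and 12893 bases from it for *Zfp981*, so these windows are not at the starts used elsewhere here. The motif ATTGGGCGG was searched on both strands, and it joins the letters of a reversed NF-Y box (its first 5) to those of a GC box (its last 6), which overlap. It was found in 9 of these 12, against 84 of all 32851 RefSeq promoters (0.256%). The shorter ATTGG was present in 10 of the 12 (37.4% of all promoters), GGGCGG in 9 (35.7% of all promoters) and TATAAA in 0 (13.6% of all promoters). The 3 windows without the long motif were those of *Zfp534*, *Zfp993* and *Zfp933*. Leaving out *Zfp993* and *Zfp981*, it was found in 8 of 10. Over all 66 pairs of windows the identity ran from 46.2% to 94.8% (median 70.9%), and the 21 pairs with *Zfp933* or *Zfp993* were at 46.2% to 53.5%. The promoters of *Zfp979* and *Zfp600* were 94.8% identical, those of *Zfp984* and *Gm13212* 87.6%, and those of *Zfp979* and *Zfp984* 69.5%. *Zfp979* and *Zfp984* were lower in LS1, and their partners *Zfp600* and *Gm13212* were not seen to be. *Zfp600* had too few reads to be tested (log2 fold change 0.42, SE 0.66), so its direction is not resolved. These 4 promoters are printed 5′ to 3′ on the strand of the gene, with the motif in capitals. They lie at chr4:147642459-147642758 (*Zfp979*, minus strand), chr4:146156577-146156876 (*Zfp600*, plus strand), chr4:147809739-147810038 (*Zfp984*, minus strand) and chr4:145584950-145585249 (*Gm13212*, plus strand).
Zfp979: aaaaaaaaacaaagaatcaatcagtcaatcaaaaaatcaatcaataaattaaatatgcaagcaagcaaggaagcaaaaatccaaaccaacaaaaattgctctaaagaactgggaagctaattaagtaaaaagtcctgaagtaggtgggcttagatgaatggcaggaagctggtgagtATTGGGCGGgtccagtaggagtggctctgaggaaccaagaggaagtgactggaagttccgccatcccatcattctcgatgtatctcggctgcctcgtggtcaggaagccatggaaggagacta
Zfp600: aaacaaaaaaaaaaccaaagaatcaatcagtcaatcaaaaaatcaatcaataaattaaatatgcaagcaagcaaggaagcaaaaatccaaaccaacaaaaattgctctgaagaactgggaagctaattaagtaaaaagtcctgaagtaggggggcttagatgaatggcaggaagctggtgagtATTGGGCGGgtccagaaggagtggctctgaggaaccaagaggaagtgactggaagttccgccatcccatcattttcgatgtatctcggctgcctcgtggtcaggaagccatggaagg
Zfp984: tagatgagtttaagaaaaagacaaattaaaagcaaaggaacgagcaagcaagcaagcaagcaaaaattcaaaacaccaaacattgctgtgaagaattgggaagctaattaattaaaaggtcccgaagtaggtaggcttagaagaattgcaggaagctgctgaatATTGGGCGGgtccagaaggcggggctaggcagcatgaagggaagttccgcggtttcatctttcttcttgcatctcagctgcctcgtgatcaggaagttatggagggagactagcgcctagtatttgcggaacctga
Gm13212: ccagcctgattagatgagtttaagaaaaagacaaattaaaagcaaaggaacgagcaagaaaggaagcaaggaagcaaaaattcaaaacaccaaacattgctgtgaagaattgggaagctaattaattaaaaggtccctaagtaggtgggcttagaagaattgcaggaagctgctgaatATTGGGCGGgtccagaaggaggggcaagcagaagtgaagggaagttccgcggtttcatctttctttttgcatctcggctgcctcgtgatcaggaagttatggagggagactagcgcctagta

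The highest coding identity was that of *Zfp991* and *Zfp992*. Each has 1722 coding bases and 11 zinc fingers, and they differ at 8 positions (99.5% identity), with 1 identical run of 484 bases. Of the 1673 windows of 50 bases along the coding sequence, 362 hold at least 1 of these differences. The incomplete coding sequence of *Zfp993* shares a longer identical run of 513 bases with *Zfp991*, and 81.9% of the 50-base words of *Zfp993* are found in *Zfp991*. The 60 bases of each gene around one such difference, A635T with positions counted from the first coding base and *Zfp991* given first, are printed with the differing base in capitals. They come from GENCODE transcripts on GRCm38, at chr4:147178772-147178831 for *Zfp991* and chr4:146466428-146466487 for *Zfp992*, both on the plus strand.
Zfp991: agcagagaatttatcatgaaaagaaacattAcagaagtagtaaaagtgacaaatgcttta
Zfp992: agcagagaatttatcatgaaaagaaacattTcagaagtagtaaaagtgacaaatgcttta

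The values are normalized counts, that is, reads per gene divided by 1 size factor per library. Values are listed as Control replicates 1, 2 and 3 and then LS1 replicates 1, 2 and 3. Differences between lines are LS1 minus Control on the log2(normalized count + 1) scale from limma, with their standard error (SE) and p-values adjusted over all 19308 genes with a mean of at least 20 reads. Of the 67 members, 46 reached that mean and were tested, 12 of them zinc finger genes.

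*Zfp979* (ENSMUSG00000066000, chr4:147611937-147642513, minus strand) was lower in LS1. Its normalized counts were 299.7, 224 and 181 in Control and 55.2, 35.7 and 63.4 in LS1. The highest LS1 library lay well below the lowest Control library, so the groups did not overlap. The group means were 235 ± 59.9 and 51.4 ± 14.3 (SD, n = 3 each), a ratio of 4.57. The log2 fold change was -2.18 (SE 0.32, adjusted p = 0.0408 from limma), the value around which the window was drawn. *Zfp979* was the only member that limma called at the 0.05 threshold, which 0.0725% of all genes tested passed (0.0622% with LS1 lower), and edgeR called 0 members, against 0.0363% of all genes tested. The edgeR value for *Zfp979* was 0.0707, and with 1 library left out in turn the adjusted p-value from limma ran from 0.0045 to 0.207.

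*Zfp991* (ENSMUSG00000067916, chr4:147132038-147180579, plus strand) had a difference of similar size. Its normalized counts were 153, 119.7 and 161 in Control and 26.7, 37.4 and 45.7 in LS1. The highest LS1 value was below the lowest Control value. The log2 fold change was -1.98 (SE 0.32, adjusted p = 0.0671 from limma), which did not pass the threshold of 0.05. With DESeq2 on the recovered reads the adjusted p-value was 3.2e-05.

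*Zfp984* (ENSMUSG00000078495, chr4:147753974-147809788, minus strand) lay at 457, 367 and 385 in Control and at 284, 144 and 146 in LS1. The LS1 libraries were again all below the Control libraries, with LS1 replicate 1 nearest to them. The log2 fold change was -1.14 (SE 0.29, adjusted p = 0.201 from limma and 0.0186 from DESeq2).

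*Zfp990* (ENSMUSG00000078503, chr4:145510759-145539188, plus strand) had the opposite sign. Its normalized counts were 592, 451 and 399 in Control and 1367, 1009 and 698 in LS1. Every LS1 library lay above every Control library, and LS1 replicate 3 was the lowest of the 3. The ratio of the means was 2.13 and the log2 fold change 1.06 (SE 0.26, adjusted p = 0.194 from limma and 0.0047 from DESeq2).

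Without LS1 replicate 3, the library that lay apart from the other LS1 libraries on the first principal component (-4.29 against 43.7 and 50.1, with Control at -41.5 to -22.1), the log2 fold changes of *Zfp979*, *Zfp991*, *Zfp984* and *Zfp990* were -2.35, -2.15, -0.98 and 1.31. Of these, *Zfp979*, *Zfp991* and *Zfp990* then passed the threshold in limma (adjusted p = 0.0045, 0.0083 and 0.0175), in a fit in which 1.68% of all genes tested did.

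The plot of normalized counts by library shows the 16 zinc finger genes in the order of their position.

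**Figure D1:**
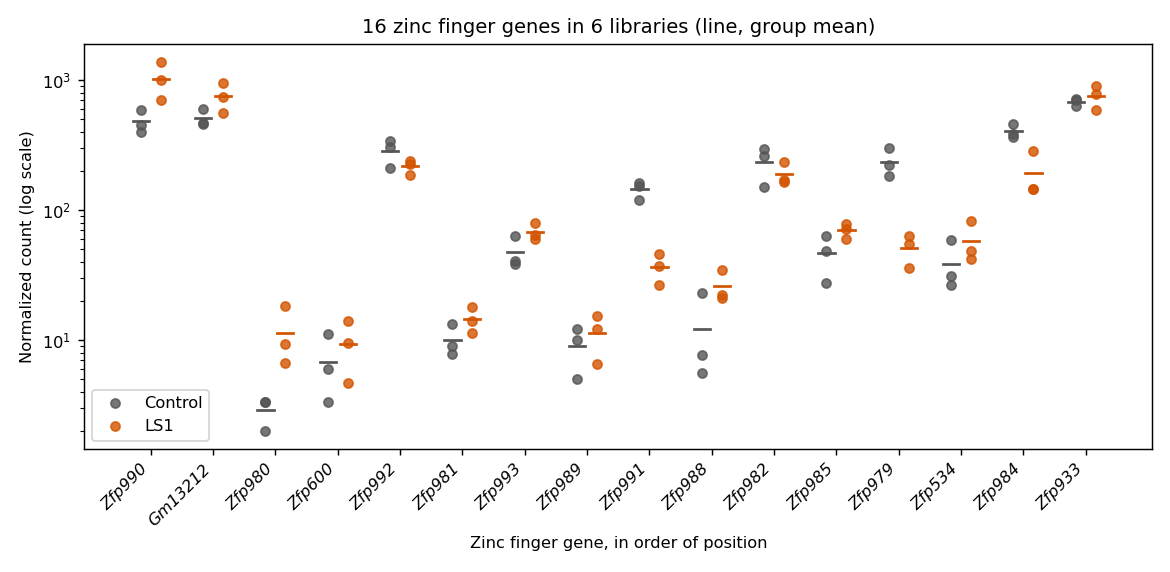
Normalized count (log scale) of each zinc finger gene of the cluster in each of the 3 Control (gray) and 3 LS1 (orange) libraries, with a line at each group mean. *Zfp991*, *Zfp979* and *Zfp984* have all LS1 points below all Control points, while *Zfp990* and *Zfp980* have all LS1 points above all Control points.

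The 8 other tested zinc finger genes had groups that overlapped. *Zfp988* ranged from 5.54 to 23.2 in Control and from 20.9 to 34.8 in LS1, with a log2 fold change of 1.24 (SE 0.58, adjusted p = 0.398 from limma) that rested on low counts. *Gm13212* lay at 603, 468 and 457 in Control and at 946, 739 and 562 in LS1 (log2 fold change 0.53). Only the lowest LS1 library and the highest Control library of *Gm13212* crossed. The values of *Zfp985*, *Zfp534* and *Zfp993* gave log2 fold changes of 0.64, 0.58 and 0.54, all with overlapping groups and adjusted p-values of 0.495 to 0.586 from limma. The remaining 3 were among the more abundant genes of the cluster. *Zfp992* lay at 341, 305 and 209 in Control and at 225, 187 and 239.7 in LS1, *Zfp982* at 151, 293 and 259.9 and at 234, 171 and 164, and *Zfp933* at 703, 627 and 718 and at 907, 776 and 592. Their log2 fold changes were -0.37, -0.27 and 0.13, and the sign of *Zfp933* turned when LS1 replicate 1 was left out.

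The 4 zinc finger genes with too few reads to be tested were *Zfp980*, *Zfp600*, *Zfp981* and *Zfp989*. *Zfp980* had values of 2.02, 3.33 and 3.32 in Control and 6.67, 18.3 and 9.33 in LS1. Its groups did not overlap, but each Control value stands for 2 or 3 reads, so no ratio is given. The other 3 lay between 3.32 and 13.3 in Control and between 4.66 and 18.1 in LS1 and overlapped.

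Per exon length and library depth (as RPKM), levels of the zinc finger genes were modest. In Control the highest means were 2.07 RPKM for *Zfp933*, 2.04 for *Zfp982*, 1.84 for *Gm13212*, 1.79 for *Zfp984* and 1.78 for *Zfp990*, and the ranges of these 5 genes over the Control libraries overlapped, so their order is not resolved. *Zfp992*, *Zfp979* and *Zfp991* followed at 0.812, 0.741 and 0.643 RPKM, also with overlapping ranges. In LS1 *Zfp990* had the highest mean at 3.76 RPKM (2.56 to 4.99 over the libraries) and *Gm13212* followed at 2.67 (2.0 to 3.36). The ranges of *Zfp990* and *Gm13212* overlapped there too, so their order is not resolved. *Zfp991* and *Zfp979* were both at 0.161.

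The summed level of the 16 genes showed no such separation. The sum of normalized counts was 3509, 3013 and 2926 in Control and 4340, 3352 and 2767 in LS1, with the highest and the lowest library both in LS1. The means were 3149 ± 315 and 3487 ± 795 (SD, n = 3 each), a log2 ratio of 0.15. The shares of the 4 tested genes whose groups did not overlap differed, which restates their fold changes. *Zfp990* took 15.3% of the Control sum and 29.4% of the LS1 sum, while *Zfp979* took 7.46% and 1.48%, *Zfp984* 12.8% and 5.49%, and *Zfp991* 4.6% and 1.05%. *Zfp933*, the largest part of the Control sum, took 21.7% and 21.8%. Without those 4 genes the sum was 2007, 1851 and 1798 in Control and 2607, 2125 and 1814 in LS1, which overlapped (log2 ratio 0.21).

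Reads that match more than 1 gene could move counts between near-identical copies, and how the counting treated such reads is not given in the sources used here. The pair of *Zfp991* and *Zfp992* and the pair of *Zfp984* and *Gm13212* were therefore also read as sums. *Zfp991* made up 28.2% to 43.6% of the reads of *Zfp991* and *Zfp992* together in Control and 10.6% to 16.7% in LS1. Together the pair had normalized counts of 494, 425 and 371 in Control and 251, 225 and 285 in LS1. The LS1 sums were all below the Control sums, with a log2 ratio of -0.76. With *Zfp993* added, a sum chosen after the values were seen, the counts were 535, 463 and 434 in Control and 316, 285 and 365 in LS1, again without overlap (log2 ratio -0.57). Further genes share words with *Zfp991*, and the part of shared reads in these values was not tested.

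*Zfp984* and *Gm13212* gave another picture. *Zfp984* made up 43.1% to 45.7% of the pair in Control and 16.4% to 23.1% in LS1. Together they had counts of 1060.4, 835 and 842 in Control and 1229, 883 and 708 in LS1. These sums overlapped, with a log2 ratio of 0.04. The coding sequences of these genes share 1 identical run of 324 bases, and the part of shared reads in this result was not tested.

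**Figure D2:**
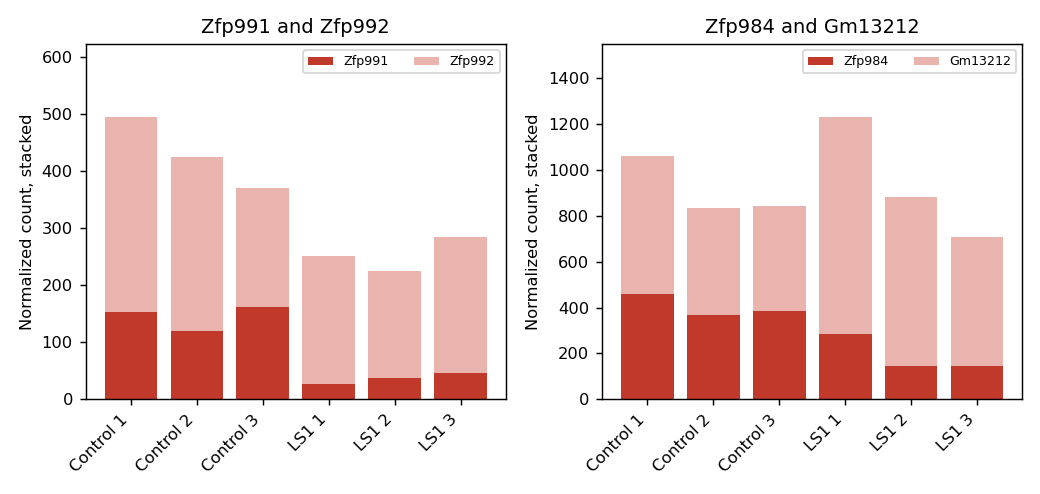
Stacked normalized counts of *Zfp991* and *Zfp992* (left) and of *Zfp984* and *Gm13212* (right) in each of the 6 libraries. The *Zfp991* and *Zfp992* total is 371 to 494 in Control and 225 to 285 in LS1, whereas the *Zfp984* and *Gm13212* totals overlap between the lines.

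Sequence that is shared with another annotated gene was common in the cluster. Some such genes overlap the member on the same strand, as *Gm26573* does *C230088H06Rik* (58.6% of its words). Sharing through such overlap was not separated from sharing between copies. A median of 42.5% of the 50-base words of a member's transcripts was also found in the transcripts of another gene, against 0.887% for all genes tested, and the median was 55.6% for the 16 zinc finger members. *Zfp979* was among the less shared of these, with 27.1% of its words found elsewhere, most of them in *Zfp600* (18.9%) and in *Rex2*. *Zfp600* and *Rex2* had few reads, with mean values of 8.09 and 2.81. In coding sequence *Zfp979* was nearest to *Zfp981* (75.9% identity) and *Zfp982* (70.5%), whose log2 fold changes were 0.49 and -0.27. *Zfp990* shared 29.1% of its words, *Zfp984* 54.5%, *Gm13212* 56.8% and *Zfp991* 82.2%, the last mostly with the pseudogene *Znf41-ps* (67.1%) and with *Zfp992* (58.4%). *Znf41-ps* itself had mean values of 12.8 in Control and 10.2 in LS1. Of the 13 tested members with under 10% of their words shared, 0 had a log2 fold change of 1 or more in size, against 2 of 14 with 10% to under 50% and 4 of 19 with 50% or more. Zinc finger genes made up 1, 5 and 6 of these 3 classes. A size of 1 or more was found for 5 of the 12 tested zinc finger genes and 1 of the 34 other tested members. *Zfp979* and *Zfp990* were in the middle class, and *Zfp991*, *Zfp984*, *Zfp988* and *Gm21411*, which is not counted as a zinc finger gene, in the highest. The parts of gene class and sharing in these values were not tested.

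**Figure D3:**
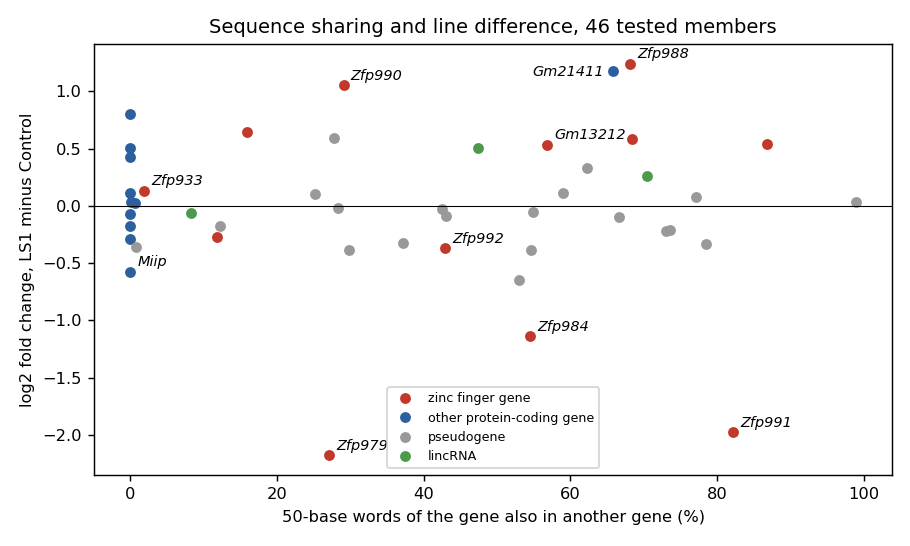
Share of a gene's 50-base words that also occur in another gene (x axis, percent) against its log2 fold change between the lines (y axis) for the 46 tested members, colored by class. The 6 members with a log2 fold change of 1 or more in size all share at least 27.1% of their words, and *Zfp979* (27.1%) and *Zfp990* (29.1%) share the least of the 6.

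Among the other protein-coding members, *Gm16503* and *Gm21411* stood farthest from 0. *Gm16503* (ENSMUSG00000078160, chr4:147540218-147543500) has a short reading frame of 312 bases and no words in common with another gene. Its normalized counts were 24.2, 24.4 and 28.8 in Control and 4.76, 9.57 and 0.93 in LS1, so the groups did not overlap, and 0.93 is a single read. The ratio of the means was 5.07, but the mean over all libraries was under 20 reads and the gene was not tested. *Gm21411*, the gene with a KRAB-like pattern and no finger in its incomplete coding sequence, lay at 27.2, 21.1 and 44.2 in Control. In LS1 it lay at 79.0, 87.0 and 45.7. Its groups were separated by a narrow gap between Control replicate 3 and LS1 replicate 3 (log2 fold change 1.18, SE 0.41, adjusted p = 0.288 from limma).

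Of 8 better known neighbors toward the edges of the cluster, 6 had mean values of 2612 to 9033, above every zinc finger member, and *Fv1* (271) and *Tnfrsf8* (35.5) did not. All 8 had log2 fold changes under 1 in size. *Miip*, which encodes an inhibitor of cell migration, lay at 3174, 3545 and 2968 in Control and at 1555, 2612 and 2478 in LS1, with no overlap (log2 fold change -0.58, SE 0.20, adjusted p = 0.284 from limma). *Mfn2*, whose product fuses mitochondria, lay between 5587 and 6049 in Control and between 4777 and 5542 in LS1, also without overlap (log2 fold change -0.17). *Tnfrsf1b*, a receptor for tumor necrosis factor, had overlapping values and a log2 fold change of 0.51 (adjusted p = 0.337 from limma), with its highest value, 4909.9, in LS1 replicate 2. *Fv1*, a retrovirus restriction gene of retroviral origin, gave -0.29, and *Tnfrsf8*, which encodes the receptor CD30, gave 0.80 with values of 6.65 to 54.5 in Control. *Dhrs3* (a retinal reductase), *Vps13d* (a lipid transfer protein) and *Plod1* (lysyl hydroxylase of collagen) gave -0.07, 0.03 and 0.02, and the signs of these 3 turned under other settings. The nearest gene past the window end with a mean of at least 5, *Clcn6*, had a mean of 1911.

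Of the 32 pseudogenes, 20 were tested and 0 had a log2 fold change of 1 or more in size. The range of the tested pseudogenes was -0.65 (*Gm13160*) to 0.59 (*Gm13142*). *Gm13160* had normalized counts of 259, 284 and 415 in Control and 187, 206 and 203 in LS1, and *Gm13142* had 138, 123 and 113 in Control and 251, 164 and 160.4 in LS1. Both had groups that did not overlap, in opposite directions. The untested pseudogene *Gm13161* lay at 11.1, 12.2 and 7.74 in Control and at 0.95, 1.74 and 1.87 in LS1. Its LS1 values were 1 to 2 reads per library, so no ratio is given. The summed pseudogene counts were 3051, 3204 and 3385 in Control and 2599, 2807 and 3026 in LS1 (log2 ratio -0.19). These sums were separated only by a narrow gap between Control replicate 1 and LS1 replicate 3.

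The lincRNAs with groups that did not overlap were *Gm26763* (3.32 to 7.06 in Control, 8.70 to 13.3 in LS1, not tested) and *Gm13166* (32.2 to 36.5 and 37.3 to 44.4, log2 fold change 0.26). The span of *Gm26763*, introns included, overlaps those of *Gm13212* and *Zfp980* on the opposite strand. Whether the counting used strand is not given in the sources used here. Of the 50-base words of *Gm26763*, matched on both strands, 12.2% were found in *1700095A21Rik* and 1.44% in *Gm13165*, the genes sharing the most. Overlap of exons was not examined, and the part of reads from the opposite strand was not tested. The span of *C230088H06Rik* overlaps those of *Zfp991*, *Zfp988* and *Gm13161* on the opposite strand in the same way. The mean values of *C230088H06Rik* were 6.08 in Control and 3.96 in LS1, far below those of *Zfp991*. *Gm26880*, the most abundant lincRNA, had means of 707 and 1006 with overlapping groups.

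Over the 46 tested members, 22 had a positive and 24 a negative log2 fold change (median -0.02), against 9783 positive of 19308 genes tested (50.7%). The groups did not overlap for 10 of them (21.7%), where 19.2% of all genes tested did not overlap. Of these, 4 lay above Control (10.3% of all genes tested) and 6 below (8.94%). A log2 fold change of 1 or more in size was found for 6, against 3.81% of all genes tested and 6.81% of those with a mean under 1000. It was positive for 3 (2.37% of all genes tested) and negative for 3 (1.44%). The DESeq2 test called 4 members (*Zfp990*, *Zfp991*, *Zfp979* and *Zfp984*), against 2.38% of all genes tested, with *Zfp990* higher (1.43%) and the other 3 lower (0.943%). An unadjusted p-value under 0.05 from limma was reached by 9 members, against 12.9% of all genes tested. Of the full 67 members, 14 had groups that did not overlap, where 17.8% of genes with a mean of at least 5 did so. For 6 of the 14 the LS1 values lay above (9.23%) and for 8 below (8.57%). Since the window was chosen on this comparison, nothing is read from these shares.

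The members with a fitted log2 fold change of -1 or less sat close together. They were *Zfp991*, *Gm13161*, *Gm16503*, *Zfp979* and *Zfp984*, and their 5′ ends lay within 0.678 Mb, a stretch that was marked out after their values were seen. *Gm13161* and *Gm16503* had too few reads to be tested, and their fitted values, like those of the untested *Zfp980*, *Gm26763* and *Gm13233*, depend on the pseudocount. This stretch held 16 of the 67 members, and the only gene in it with a fitted value of 1 or more was *Zfp988*. Of the other 51 members, 0 had a fitted value of -1 or less, which follows from how the stretch was drawn. A fitted value of 1 or more was found for 5 of them. Of those 5, *Zfp990*, *Zfp980* and *Gm26763* lay between 1.93 and 2.13 Mb from the 5′ end of *Zfp979*.

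**Figure D4:**
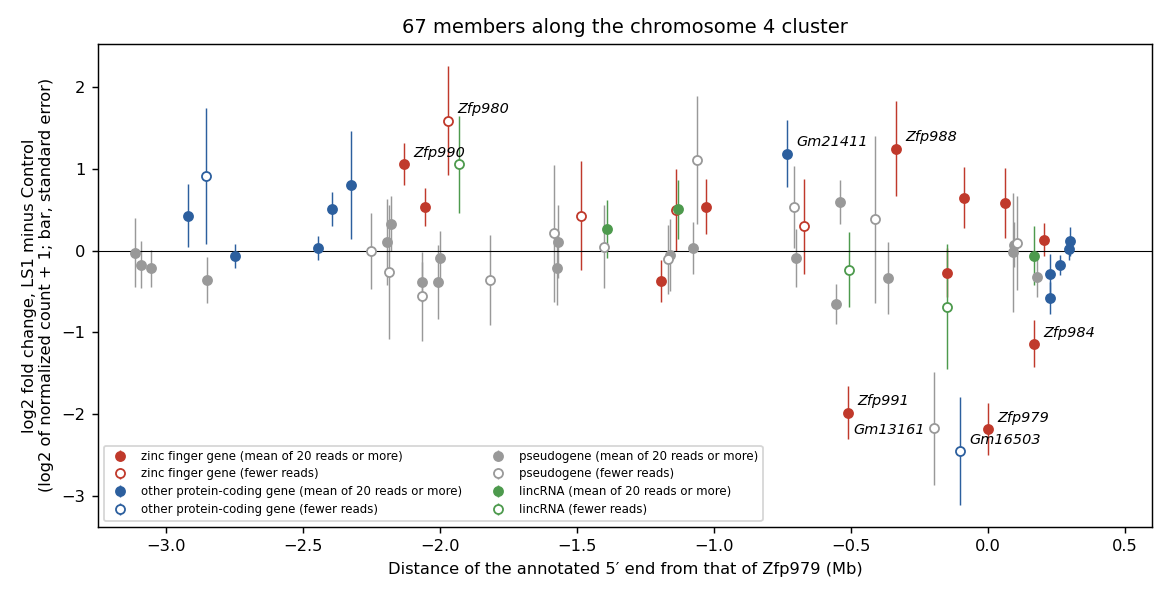
Log2 fold change with its standard error (y axis) of the 67 members by the distance of their annotated 5′ end from that of *Zfp979* (x axis, Mb), colored by class, with open circles for members that had a mean under 20 reads. The 5 members at or below -1 fall between *Zfp991* (-0.51 Mb) and *Zfp984* (0.17 Mb), and the 6 members at or above 1 lie between *Zfp990* (-2.13 Mb) and *Zfp988* (-0.34 Mb).

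Genes with a Zfp symbol elsewhere in the genome had smaller differences between the same libraries. They were taken by symbol alone and, unlike the zinc finger members, were not checked for C2H2 zinc fingers. Of 360 tested Zfp genes outside the window, 0 had a log2 fold change of 1 or more in size, and their range was -0.82 to 0.92 (median 0.05). Among the 12 tested zinc finger members of the cluster, 5 did (41.7%), and their range was -2.18 to 1.24 (median 0.33). The groups did not overlap for 51 of the 360 (14.2%) and 4 of the 12. In the windows of the same length with the most tested Zfp genes, on chromosomes 13, 17 and 7, 0 of 24, 0 of 23 and 0 of 23 reached 1 in size. The window on chromosome 17 had groups that did not overlap for 6 of its 23 genes (26.1%), all with LS1 above, and a median of 0.37. On chromosome 4 outside the window, 39 of 1147 genes tested did (3.40%). The genes outside the window were not matched to the members in level or shared sequence, and the difference between the sets was not tested, since the window was chosen for *Zfp979*.

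**Figure D5:**
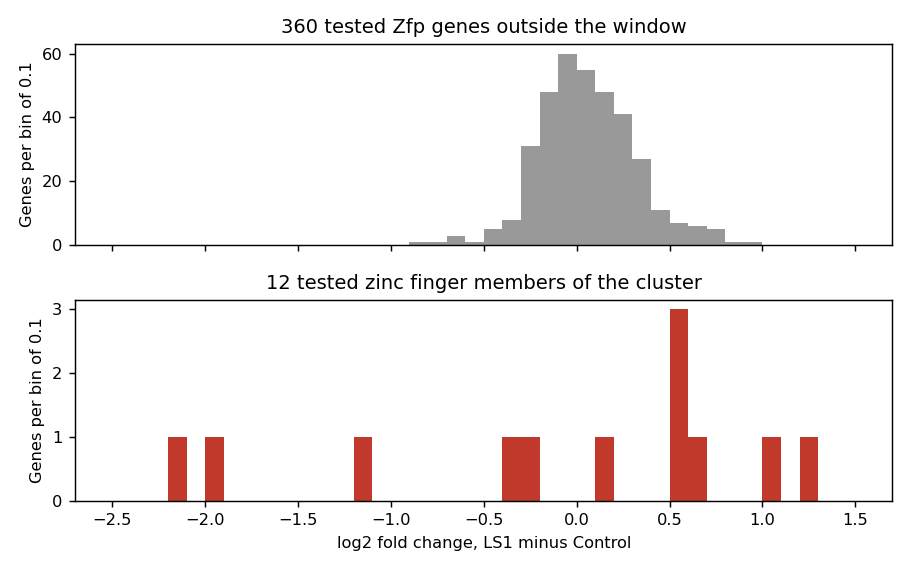
Number of genes per bin of 0.1 in log2 fold change (x axis, LS1 minus Control) for 360 tested Zfp genes outside the window (top) and the 12 tested zinc finger members (bottom). The genes outside the window lie between -0.82 and 0.92, and 5 of the 12 members lie at 1 or more in size.

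A list of 32 genes of the KRAB silencing pathway holds corepressors, histone and DNA methylation genes and the KRAB zinc finger genes *Zfp57*, *Zfp568* and *Zfp809*. Of 31 tested, 16 had a positive and 15 a negative log2 fold change. The adjusted threshold was passed in limma by 0 of them (0.0725% of all genes tested) and an unadjusted p of 0.05 by 3 (12.9% of all genes tested), and edgeR and DESeq2 were not counted over this list. Those 3, *Dnmt1*, *Setdb1* and *Uhrf1*, all had negative values. *Trim28* gave a log2 fold change of 0.09 and *Setdb1* of -0.33 (adjusted p = 0.809 and 0.330 from limma). The list ran from -0.46 (*Dnmt1*, the maintenance DNA methyltransferase) to 0.31 (*Zfp57*).

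Facts of the libraries bear on these values. The libraries held 68803249 to 88745366 reads, and the LS1 libraries were the deeper ones. Chondrocyte markers had a median log2 fold change of 0.50 (13 of 16 higher, summed levels of 2852315 to 3267692 in Control and 3737548 to 4231263 in LS1), erythroid markers of -0.51 (0 of 12 higher, 480574 to 618156 and 332759 to 536057), B cell markers of -0.44 (1 of 10 higher, 54479 to 57501 and 33051 to 51396) and muscle markers of -0.72 (0 of 10 higher, 11072 to 25891 and 6357 to 15816), with 0 markers at 0. The muscle medians by library were 0.71, -0.10 and -0.39 in Control and -1.58, -0.02 and -0.39 in LS1, so their difference rests on replicate 1 of each line. Other marker lists had medians nearer to 0 and summed levels that overlapped. These were macrophage (median 0.23, 9 of 10 higher), neutrophil (0.19, 8 of 10), osteoclast (0.03, 5 of 8), and osteoblast and osteocyte markers (0.001, 6 of 12). In bulk tissue, fewer cells of a type and less RNA per cell cannot be told apart, and the part of tissue makeup in the values of the cluster was not tested. Interferon-stimulated genes were at a median log2 level of 1.81, 2.95 and -0.06 relative to Control in LS1 replicates 1, 2 and 3, where *Zfp979* was at 55.2, 35.7 and 63.4, and the part of that response in the values of the cluster was not tested. Y-linked genes were high in Control replicate 3 and LS1 replicates 1 and 3. Within these libraries *Zfp979* was 181 in Control and 55.2 and 63.4 in LS1, and within the others 299.7 and 224 in Control and 35.7 in LS1.

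The limits of the rule cut across low counts. The members just inside the mean of 5 were *C230088H06Rik* (5.02), *Gm13036* (5.12) and *Gm13233* (5.22), and the genes just outside were *Gm13155* (4.24), *Gm13244* (3.71) and *Gm13158* (3.70). Further Zfp genes of the window fell under the limit, *Zfp986* at 3.59, *Zfp978* at 0.889 and *Zfp987* at 0.470. The natriuretic peptide gene *Nppb* lay in the window with a mean of 0.996 and was no member, and *Nppa* started past its end. In all, 51 genes of the window were under the limit, 6 of them at 0 in every library.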

How the data were processed

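RNA of 6 mice (3 Control, 3 LS1) was compared, with groups taken from the strain named in the labels. Per the labels, the authors aligned reads with HISAT2 2.0.2 (build GRCm38) and used featureCounts 1.4.6 and DESeq2. The deposited values are a signal per gene, the count divided by 1 size factor per library. The value of 1 read (0.870 to 1.11) was found from the low values, and 100% of the values were whole multiples of it (tolerance 0.01), so counts were recovered by division. There were 0 unused columns.

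Expression was compared with limma 3.58.1 (R 4.3.3) on log2(value + 1) with a mean-variance trend and robust moderation, over 19308 genes with a mean of at least 20 reads, with Benjamini-Hochberg adjustment over these genes (threshold 0.05). A fold change on this scale understates that of low genes. Members below that mean have fold changes and SEs from a fit of all genes with a mean value of at least 5, and no p-value. Alternatives were edgeR 4.0.16 and DESeq2 1.42.0 on recovered counts, other scalings, filters and pseudocounts (0.5 and 5), a replicate block, a Y-linked covariate and each library left out. The scripts were tested on simulated data. With 3 mice against 3, an exact permutation test cannot go below 0.1, so none is given.

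Coordinates and transcripts came from GENCODE M21, where 98.9% of the identifiers had a symbol, and promoters from RefSeq. RPKM used the exon length of a gene and the recovered total of a library. No protein table was used, so zinc fingers, the KRAB-like pattern and identities come from GENCODE coding sequences. Words of 50 bases, the longest read length in the labels, were matched on both strands.

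The members, the gene lists and the alternatives were chosen with earlier results of these data known. Named genes were set by a rule: every zinc finger member, the other members with the largest changes among those with groups that did not overlap, known neighbors, *Trim28*, *Setdb1*, the nearest relatives of *Zfp979* and the genes nearest the limits. *Dnmt1*, *Uhrf1*, *Zfp57*, *Gm26880* and *Znf41-ps* were added after their values were seen. The *p*-values measure the spread between these mice alone.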

Additional observations from a re-analysis of the deposited data

How the results depend on the processing

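With 1 library left out, the log2 fold change turned sign for 17 of the 46 tested members (5 of the 24 named ones and 12 of the 22 others) and for 0 of the 6 with a size of 1 or more. Over the 24 named genes and 17 alternatives, 397 of 408 log2 fold changes kept their sign. The 11 that turned belong to *Dhrs3*, *Vps13d*, *Tnfrsf8*, *Zfp933* and *Plod1*. *Vps13d* was -0.0054 with upper-quartile factors. *Plod1* was -0.00096 with edgeR, -0.0158 with upper-quartile factors and -0.0230 with the Y-linked covariate. With 1 library left out they ran from -0.15 to 0.025 (*Dhrs3*), -0.049 to 0.14 (*Vps13d*), -0.0041 to 1.43 (*Tnfrsf8*), -0.0076 to 0.30 (*Zfp933*) and -0.065 to 0.14 (*Plod1*).

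The calls depend on the test. Over all genes, limma called 14, against 7 with edgeR, 459 with DESeq2, 45 with a filter of at least 1 read in any library and 7 without robust estimation, and 5 to 324 with 1 library left out (5 without Control replicate 2, 9 without Control replicate 1, 46 without LS1 replicate 1 and 324 without LS1 replicate 3). Of the members, 1 was called, against 4 with DESeq2, 2 with upper-quartile factors, 2 with a filter of at least 1 read, and 0 with edgeR, with a filter on a mean value of 5, without robust estimation, with the Y-linked covariate, and with the replicate block. Counts over all genes are not given here for upper-quartile factors, the filter on a mean of 5, the Y-linked covariate and the block. Member counts under these settings are therefore not set against a share of all genes. The block used the first letter of the sample titles. Samples with the same letter had correlations of 0.021 to 0.224 in their deviations from the group means, so the letters were not taken to pair the mice. With 1 library left out, 0 to 3 members were called, 3 without LS1 replicate 3 and 2 without LS1 replicate 1 (*Zfp979* and *Zfp984*). The cause of these changes was not tested.

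Members whose groups did not overlap numbered 12 to 17 with 1 library left out, against 10, which follows in part from comparing fewer libraries. The share over all genes tested was not counted with 1 library left out, so nothing is read from this range. The log2 ratio of the summed zinc finger genes was -0.04 to 0.29 with 1 library left out, negative without LS1 replicate 1, and the median of the tested members -0.06 to 0.01. Genes with few reads, *Zfp980* and *Zfp988* among them, carry wide errors at this depth.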
